A study of Mus musculus with 16 samples.

Results

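The genes described are 10 transcription factors, Bcl11a, Bcl11b, Esrrg, Ebf1, Pbx3, St18, Gata3, Mef2c, Foxp2 and Tshz2, out of 27066 genes counted in single sensory neurons of the vagal ganglia. They were picked from differences seen in these same counts between cells high in different subtype genes. Their levels by subtype are therefore given as a description with no test, and tests are kept for other contrasts (sex, glial RNA and run). The name "subtype-restricted" held for most of them and not for all: Ebf1 had UMIs in 1391 of 1392 cells and Tshz2 in 1382, and both were high or moderate in every group of cells.

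Transcription factors bind DNA at short motifs and set which other genes a cell reads. In sensory ganglia, factors that are kept on after a neuron is born maintain its subtype, including its receptors, peptides and targets. The vagal ganglia hold the placode-derived nodose neurons, which serve the viscera, and the neural crest-derived jugular neurons, which resemble somatosensory neurons and carry Prdm12.

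The cells came from the vagal ganglia of 15 pooled mice of either sex at postnatal day 4. All carried VGlut2Cre and R26-nGFP, so that nuclei were green in cells with present or past activity of the glutamate transporter gene Vglut2 (Slc17a6), and neurons that never used this gene are missing from the sort. Green cells without the dead-cell dye DAPI went 1 to a well into 16 plates with 96 wells each. CEL-Seq2, a plate method that reads RNA from its 3' end and counts original molecules by random tags (UMIs), gave the counts. There was 1 group of samples, so all comparisons are between kinds of cells, and the plate is the replicate.

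The plates held 74 to 93 cells and 5078592 to 8871398 UMIs each, and a cell held 17714 to 223921 UMIs (median 70667). Every cell had a UMI of Slc17a6. The 96 well barcodes were reused between plates, 26 of them in all 16, and no 2 cells had identical counts. Plates 2 and 3 stood apart in having no cell with Xist and without Y-linked RNA. Glial RNA was present in many wells: summed over 8 glial genes, nodose-like cells had 1325 ± 227 CPM (UMIs per 1000000 UMIs, SD, n = 16 plates) and jugular-like cells 875 ± 335 CPM, and none of the 8 was at 0 in either.

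A cell was called jugular-like where its summed CPM of Prdm12, Prrxl1 and Gfra3 exceeded that of a list of nodose markers that includes Phox2a, P2rx2, Eya1 and Htr3a, and nodose-like otherwise. This gave 1152 nodose-like and 240 jugular-like cells, of which 27 lay within 4-fold of the limit. Within these, a cell joined the group of the subtype gene that stood highest relative to its own 99th percentile over all cells, if that ratio was at least 0.25 and the cell held at least 5 UMIs of it. The groups held 166 Prox2-high, 150 P2ry1-high, 64 Vip-high, 23 Sst-high, 91 Cckbr-high, 281 Eln-high and 63 Bmp3-high cells, nearly all nodose-like except for 41 jugular-like P2ry1-high cells. The mostly jugular-like groups were 51 Mrgprd-high, 65 Calca-high and 39 Trpm8-high cells, and 356 other nodose-like and 43 other jugular-like cells were left. A group's level is the mean ± SD of CPM over plates with at least 2 of its cells. The same ratio limit and minimum of 5 UMIs, applied to a member, define the cells called high in it.

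The degree of restriction was measured on CPM of the UMIs summed over all cells of a group, not on the mean over plates. It is 1 minus each group's CPM relative to the highest group, averaged over the groups other than the highest. An even gene has 0, and a gene in 1 group has 1. Restriction was 0.965 for Foxp2, 0.964 for Bcl11b, 0.948 for Gata3 and 0.872 for Esrrg. St18 (0.764), Pbx3 (0.743), Mef2c (0.737) and Bcl11a (0.708) were shared by several groups. Tshz2 had 0.542 and Ebf1 0.187, and 28.4% of the 9494 genes that reached 20 CPM in a group were more even than Ebf1. The median was 0.754 for the 10 genes and 0.262 over those 9494, a difference that the choice of the genes brings with it.

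**Figure D1:**
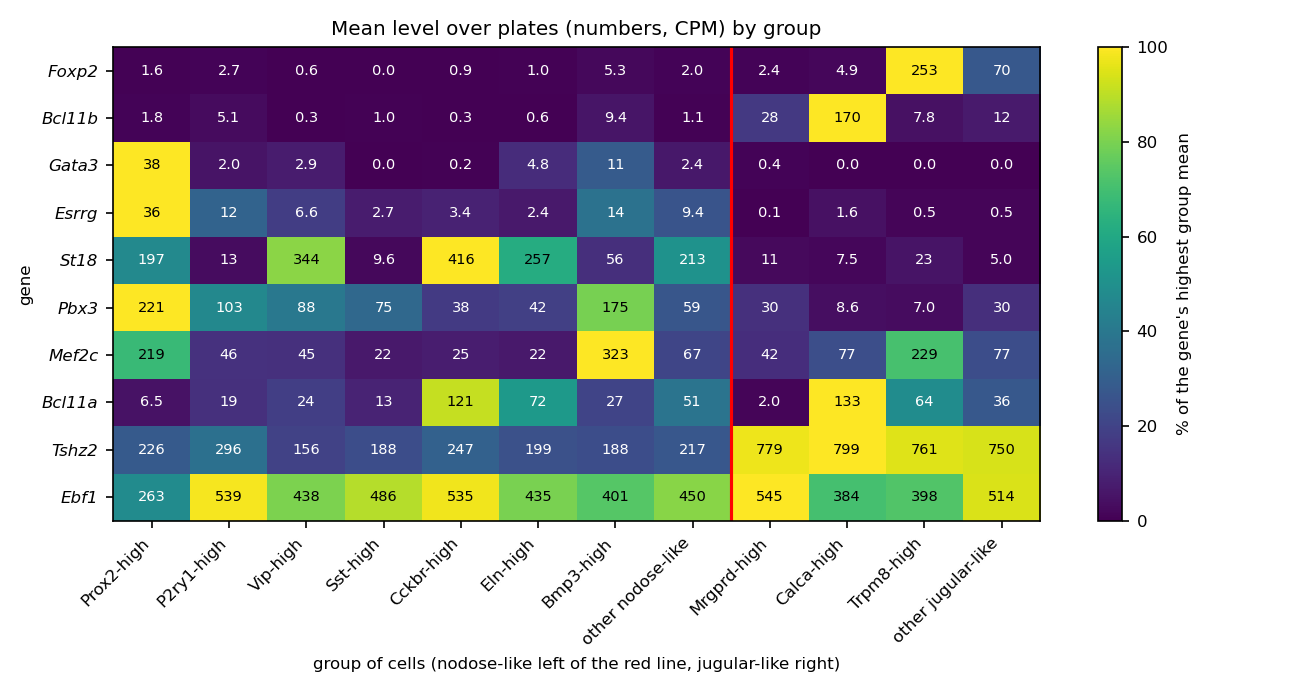
Mean level over plates, in CPM (numbers in the cells), of the 10 genes (rows, most restricted at the top) in the 12 groups of cells (columns). Colour gives the level as a percentage of the gene's own highest group: Foxp2 and Bcl11b each have 1 bright column, Tshz2 is bright in the 4 jugular-like columns, and Ebf1 is bright throughout except in the Prox2-high column.

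Pbx3, Gata3 and Esrrg were highest in Prox2-high cells. Pbx3 encodes a TALE homeodomain protein that binds DNA together with Hox and Meis proteins. In Prox2-high cells its plates ran from 165 to 271 CPM around a median of 216 (mean 220.5 ± 31.1, n = 16), and 160 of the 166 cells were high in it. Bmp3-high cells followed at 175 ± 57.0 CPM (n = 14) with an overlapping range, then P2ry1-high cells at 103 ± 22.0 CPM (n = 16). The lowest levels were in Calca-high (8.61 ± 6.41 CPM, n = 14) and Trpm8-high cells (7.02 ± 7.21 CPM, n = 10), whose plates all lay below every Prox2-high plate. P2ry1-high cells were mixed: Pbx3 stood at 134 ± 32.3 CPM in their nodose-like cells (n = 16) and at 12.6 ± 8.45 CPM in their jugular-like cells (n = 13), so that within this group it was high in the cells of 1 class.

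Gata3 encodes a zinc finger factor known from T helper cells, the inner ear and sympathetic neurons. Its level in Prox2-high cells was 8.83 in the lowest plate, 42.5 at the median and 64.3 CPM in the highest (mean 38.1 ± 15.6, n = 16). The mean reflects few cells with much RNA: 33 of the 166 cells were high in Gata3, 121 had none. The whole data set had 44 Gata3-high cells. Bmp3-high cells had 11.0 ± 18.7 CPM (n = 14) with 5 plates at 0, and 6.48 CPM without plate 6. Eln-high cells had 4.81 ± 9.68 CPM (n = 16) with 8 plates at 0, and 2.78 CPM without plate 10. No Gata3 UMI was found in Calca-high, Trpm8-high or other jugular-like cells; against 3 UMIs in the last of these groups, which is taken as the limit that a count of 0 allows, the Prox2-high mean was at least 25.0-fold higher. After every cell was thinned to 15000 UMIs, 22.3% of Prox2-high cells held a Gata3 UMI (exact binomial 95% interval 16.2% to 29.4%, counting error only; 27.1% before thinning). The shares after thinning were 1.78% in Eln-high cells and 0.00% in Trpm8-high cells, where the interval reached 9.03%.

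Esrrg encodes an orphan nuclear receptor that drives genes of oxidative metabolism. Prox2-high plates ranged from 18.3 to 64.1 CPM with a median of 36.7 (mean 36.2 ± 11.3, n = 16). It was 13.6 ± 15.7 CPM in Bmp3-high (n = 14) and 11.6 ± 6.63 CPM in P2ry1-high cells (n = 16), and at most 9.43 CPM on average in the other groups. The mostly jugular-like groups had nearly none of it, with 4 UMIs in Calca-high cells and 1 in each of the Trpm8-high, Mrgprd-high and other jugular-like cells. Of 54 cells high in Esrrg, 37 were Prox2-high.

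Mef2c encodes a MADS-box factor of muscle, heart and activity-dependent gene expression in neurons. It had 3 high groups that cross the class border: Bmp3-high cells with 120 to 532 CPM (median 311, mean 323 ± 130, n = 14), Trpm8-high cells with 57.2 to 434 CPM (median 210, mean 229 ± 112, n = 10) and Prox2-high cells with 25.7 to 515 CPM (median 209, mean 218.5 ± 109, n = 16). The ranges of the 3 overlapped, so their order is not resolved. All other groups averaged 77.3 CPM or less, down to 21.5 ± 18.7 CPM in Sst-high cells (n = 7). Depth differed, since the median was 44245 UMIs in Trpm8-high cells and 74476 in Prox2-high cells.

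**Figure D2:**
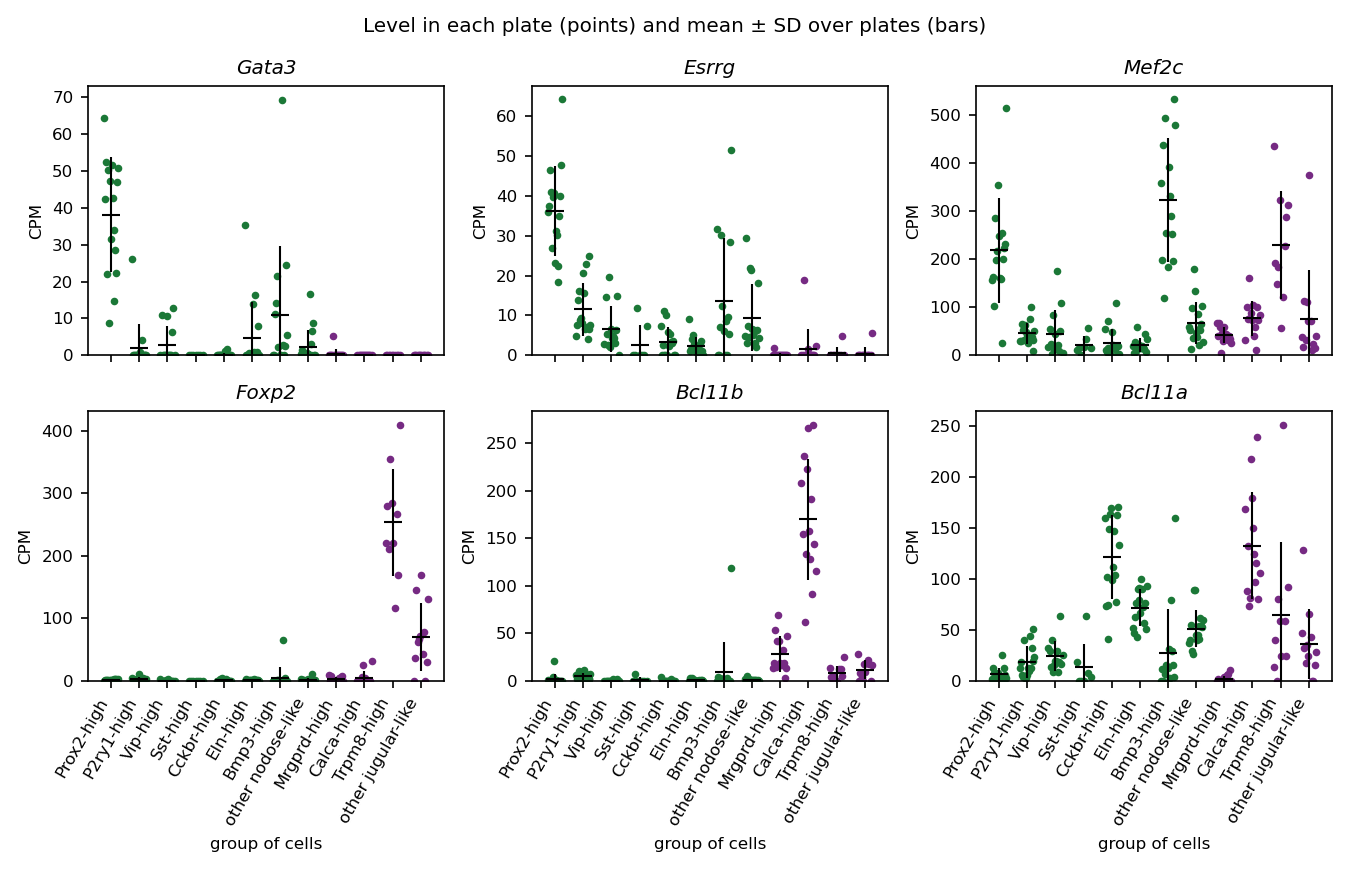
CPM of 6 genes (panels) in each plate (points, green for nodose-like and purple for jugular-like groups) with the mean and SD over plates (black bars) by group of cells. Gata3 and Esrrg are highest in Prox2-high plates, Mef2c has 3 high groups, Foxp2 stands up in Trpm8-high and Bcl11b in Calca-high plates, and Bcl11a is high in Calca-high, Cckbr-high and Eln-high plates.

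Within the Prox2-high cells, Gata3 and Mef2c were high in different cells, a split chosen after their values were seen and given as a description. Of the 166 cells, 33 were high in Gata3, 70 in Mef2c, 63 in neither and 0 in both. Not a single Gata3 UMI was found in the 70 Mef2c-high cells, which allows a share of up to 4.29% of such cells with a UMI, whereas 6 of the 33 Gata3-high cells held a Mef2c UMI. Both kinds were spread over 15 plates. Esrrg sided with Mef2c: 33 of the 37 Esrrg-high Prox2-high cells were also Mef2c-high and 0 were Gata3-high. Its level was 68.4 ± 24.3 CPM in Mef2c-high (n = 15 plates), 17.9 ± 12.0 CPM in Gata3-high (n = 9) and 15.2 ± 6.34 CPM in the remaining cells (n = 14).

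Of the other members, only Ebf1 had plate ranges apart between the Mef2c-high and the Gata3-high cells. St18 was 93.8 ± 62.7 CPM in the Mef2c-high cells against 246 ± 93.2 CPM in the Gata3-high cells and 301 ± 85.7 CPM in those high in neither, with overlapping ranges. Ebf1 was 210 ± 28.3 CPM in the Mef2c-high cells (167 to 264 over plates) and 367 ± 71.8 CPM in the Gata3-high cells (274 to 451). Tshz2 had its highest mean in the Gata3-high cells at 396 ± 127 CPM (269 to 666 over plates). It was 211 ± 41.5 CPM in the Mef2c-high cells, with an overlapping range. In the remaining cells Tshz2 was 172 ± 39.1 CPM (98.2 to 249), below every plate of the Gata3-high cells. Pbx3 had overlapping ranges in all 3, with means from 188 ± 44.5 to 238 ± 37.4 CPM. Bcl11b and Foxp2 averaged 2.01 CPM or less in each. Summed over 6 glial genes (a list that includes Fabp7 and Sox10), the Gata3-high cells had 595, the Mef2c-high cells 570 and the other cells 634.5 CPM. S100b, a calcium-binding protein of glia and of some neurons, differed more, with 572 CPM in the Mef2c-high against 84.3 CPM in the Gata3-high and 107 CPM in the other cells.

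**Figure D3:**
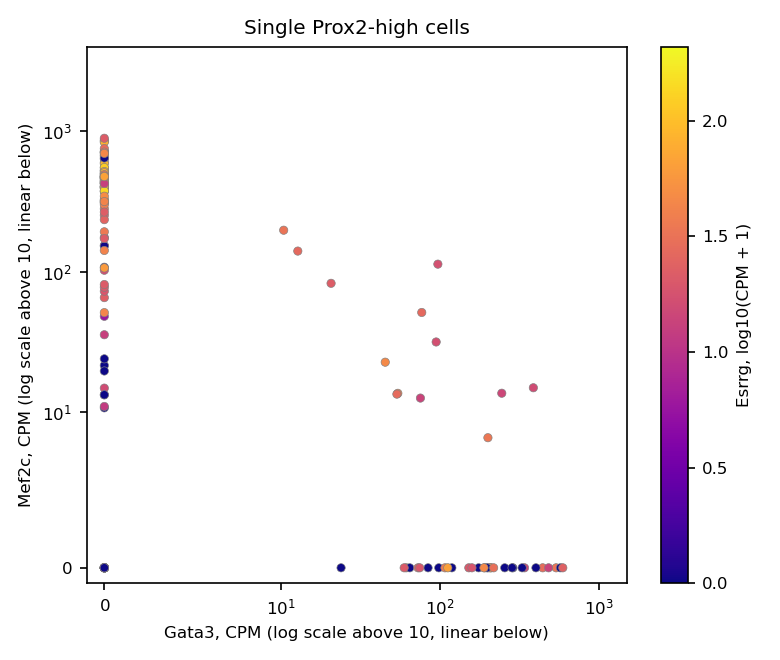
Gata3 (x axis) and Mef2c (y axis) in CPM in each of the 166 Prox2-high cells, with both axes linear below 10 and logarithmic above, and colour for Esrrg as log10(CPM + 1). Cells lie along the 2 axes, with few between them, and the brighter Esrrg colours sit among cells with Mef2c and no Gata3.

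Since Gata3 and Th (tyrosine hydroxylase) are also genes of sympathetic neurons, markers of that cell type were read in the 44 Gata3-high cells. All 44 were nodose-like and held Th, which was 1249 CPM in their summed counts against 157 CPM in all other cells. Of the 5 sympathetic markers, Hand2 and Gata2 were each found in 2 of the 44 cells, Slc6a2 (noradrenaline transporter) in 3 and Dbh (dopamine beta-hydroxylase) in 6. The 2 cells with Hand2 carried 935 CPM of Dbh and 1328 CPM of Slc6a2 and no Prox2, and 1 of them counted as Bmp3-high. Without them the other 42 cells had Th at 1258, P2rx2 (an ATP-gated channel of nodose neurons) at 500 and Prox2 at 249 CPM, with Hand2 and Gata2 at 0, Dbh at 1.54 and Slc6a2 at 3.08 CPM. Gata3 itself was 239 CPM in the 42 and 204 CPM in the 2.

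Since 44 of the 54 Esrrg-high cells were also among the 193 Mef2c-high cells, the promoters of both genes are shown, as the RefSeq windows around transcription starts give them (build GRCm38, the build of the mm10 alignment). The windows run from 250 bases before a start, and 13 of them were listed for 7 of the 10 genes. Of 4 windows of Esrrg, that with the start nearest the gene's 5' end holds a loose form of the MEF2 motif (CTA and TAG with any 4 bases between them), 12 bases before the start. Of 3 windows of Mef2c, that of an internal start holds AAGGTCA, a motif of estrogen-related receptors, on the reverse strand and 65 bases before the start. The last 100 bases before each start, on the given + strand, lie in introns of longer transcripts. They overlap no annotated exon of the gene itself, and exons of other genes were not checked. Capitals mark the motif:
Esrrg chr1:187608906-187609005: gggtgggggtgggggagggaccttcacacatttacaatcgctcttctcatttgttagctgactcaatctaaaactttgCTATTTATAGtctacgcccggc
Mef2c chr13:83573507-83573606: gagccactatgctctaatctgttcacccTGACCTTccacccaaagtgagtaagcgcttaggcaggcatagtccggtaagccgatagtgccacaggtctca

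Searched on both strands, this loose MEF2 form occurs in 3.69% and AAGGTCA in 4.72% of all 32851 promoter windows of this length. Each match, as searched, is therefore of a kind that many genes have. A stricter MEF2 form, with the 4 middle bases limited, was not searched. The GATA motif GATAA was in 2 of the 13 windows (1 of Ebf1 and 1 of Mef2c) and in 25.4% of all windows. The EBF motif (TCCC and GGGA with any 2 bases between them, 0.904% of all windows), the PBX motif TGATNNAT (8.85%) and the forkhead motif TAAACA (13.4%) were in none of the 13. A match is a string in the genome, not a measured site, and 3' end counts do not show which start a cell used.

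St18 encodes a zinc finger factor of the Myt family and was high in several nodose-like groups. Cckbr-high cells, which carry the cholecystokinin B receptor, had 203 to 593 CPM over plates around a median of 424 (mean 416 ± 89.9, n = 16). Vip-high cells followed with 344 ± 110 CPM (n = 14), Eln-high with 257 ± 53.7 CPM (n = 16), other nodose-like with 212.5 ± 89.4 CPM (n = 16) and Prox2-high cells with 196.5 ± 55.2 CPM (n = 16), each overlapping its neighbour. Bmp3-high cells were lower at 55.9 ± 60.8 CPM (n = 14), though their highest plate reached 247 CPM. P2ry1-high cells (13.5 ± 23.5 CPM, n = 16, and 7.96 CPM without plate C) and Sst-high cells (9.56 ± 5.21 CPM, n = 7) had as little as the mostly jugular-like groups, which averaged 5.00 to 22.5 CPM. The last value is that of Trpm8-high cells and was 4.94 CPM without plate 6, and that of Mrgprd-high cells was 10.9 CPM and 3.67 CPM without plate 9. All 448 cells high in St18 were nodose-like.

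Bcl11a and Bcl11b encode related zinc finger repressors, the first known from fetal globin silencing and the second from T cells and corticospinal neurons. Bcl11b was restricted to Calca-high cells, the CGRP neurons, with 61.5 to 269 CPM over plates and a median of 156 (mean 170 ± 63.9, n = 14). Mrgprd-high cells had 28.1 ± 18.7 CPM (n = 15) and a highest plate of 69.6 CPM, so only the lowest Calca-high plate fell within their range. Of the 50 cells high in Bcl11b, 43 were Calca-high. The mean of 9.39 ± 31.6 CPM in Bmp3-high cells rests on plate E at 119 CPM, where all 44 UMIs were in 1 jugular-like cell, and the next plate had 3.90 CPM.

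Bcl11a ranged more widely. It was highest in Calca-high cells with 73.8 to 240 CPM (median 120, mean 133 ± 52.4, n = 14) and in Cckbr-high cells with 40.8 to 171 CPM (median 123, mean 121 ± 41.3, n = 16), which did not differ beyond their spread, and then in Eln-high cells at 72.0 ± 18.2 CPM (n = 16). It was nearly absent from Mrgprd-high cells, with 10 UMIs in all and 9 of 15 plates at 0, and low in Prox2-high cells at 6.46 ± 6.39 CPM (n = 16). Within the Calca-high cells, 40 of 65 were high in Bcl11a, 43 in Bcl11b and 30 in both. Across jugular-like cells their Pearson correlation was 0.61 (log2 of UMIs per 10000 plus 1, n = 240), and across nodose-like cells it was -0.06 (n = 1152). Cells of a plate share their library, and both values move with depth.

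Foxp2 encodes a forkhead factor best known from speech and vocal circuits. In Trpm8-high cells, which carry the cold and menthol channel, plates ran from 116 to 410 CPM with a median of 243.5 (mean 253 ± 86.0, n = 10). Other jugular-like cells had 69.5 ± 54.3 CPM (n = 12) with a highest plate of 169 CPM, within the Trpm8-high range, and all remaining groups averaged 5.31 CPM or less. That value, of Bmp3-high cells, rests on plate 7 at 65.8 CPM and was 0.656 CPM without it. Of the 39 Trpm8-high cells, 35 were high in Foxp2 and all 39 held a UMI of it. Thinned to 15000 UMIs, 94.9% of Trpm8-high cells (interval 82.7% to 99.4%) and 51.2% of other jugular-like cells held a UMI. The share was 3.01% in Prox2-high cells, and in the remaining groups it ran from 0.00% (as in Vip-high cells) to 6.35% (Bmp3-high cells). Whether these UMIs are background was not tested. Mef2c was high in 20 of the 39 Trpm8-high cells. Of these 20, 18 were also Foxp2-high, near the share of 35 of 39 over the whole group.

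Tshz2 encodes a teashirt zinc finger homeobox protein and differed more between the classes than between the groups within a class. Calca-high (799 ± 145 CPM, n = 14), Mrgprd-high (779 ± 148 CPM, n = 15), Trpm8-high (761 ± 125 CPM, n = 10) and other jugular-like cells (750 ± 173 CPM, n = 12) did not differ beyond their spread. The nodose-like groups lay between 156 ± 59.9 CPM in Vip-high (n = 14) and 296 ± 91.6 CPM in P2ry1-high cells (n = 16). Within the P2ry1-high cells, Tshz2 was 199 ± 69.8 CPM in nodose-like (n = 16) and 606 ± 119 CPM in jugular-like cells (n = 13). It also differed within the nodose-like Prox2-high cells. There it was 396 ± 127 CPM in Gata3-high cells (n = 9) and 172 ± 39.1 CPM in cells high in neither Gata3 nor Mef2c (n = 14), with ranges apart.

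Ebf1 encodes a helix-loop-helix factor best known from B cell commitment. Its level ran from 545 ± 73.2 CPM in Mrgprd-high (n = 15) to 384 ± 52.3 CPM in Calca-high cells (n = 14) with overlap between all neighbours, and Prox2-high cells alone lay apart by more than the SDs. There the plates ran from 223 to 312 CPM with a median of 262.5 (mean 262.5 ± 26.7, n = 16), below every plate of the Eln-high cells (357 to 518 CPM). Single plates of the Sst-high (from 254 CPM), Trpm8-high (from 244 CPM), Vip-high (from 273 CPM) and Calca-high cells (from 303 CPM) reached into the Prox2-high range. Not all Prox2-high cells shared the low level. Ebf1 was 367 ± 71.8 CPM in those high in Gata3 (n = 9) and 210 ± 28.3 CPM in those high in Mef2c (n = 15). In those high in neither it was 269 ± 41.6 CPM (n = 14).

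By class, plate ranges of 5 of the 10 genes did not overlap: Bcl11b and Tshz2 were higher in jugular-like and Pbx3, St18 and Gata3 in nodose-like cells. Over 11493 genes with at least 500 UMIs, 10.4% had ranges apart in either direction, and the class was part of how the genes were chosen, so nothing is read from the count. For St18 the nodose-like mean was 215 ± 36.3 CPM and the jugular-like mean 5.36 ± 3.88 CPM, and for Bcl11b 1.39 ± 0.97 against 62.0 ± 29.2 CPM (n = 16 plates each). Tshz2 was 208 ± 37.4 against 728 ± 115 CPM, 3.49-fold higher in jugular-like cells. Mef2c (82.0 ± 32.6 and 81.5 ± 28.1 CPM) and Bcl11a (47.5 ± 12.6 and 49.8 ± 25.6 CPM) had nearly equal means and overlapping ranges in the classes. Esrrg (11.4 ± 4.78 and 1.10 ± 1.55 CPM) was higher in the nodose-like cells of all 16 plates and Foxp2 (1.59 ± 0.83 and 38.1 ± 27.9 CPM) in those of 1 plate, with overlapping ranges. Ebf1 had means of 427 ± 44.9 CPM (nodose-like) and 483 ± 59.3 CPM (jugular-like) and was lower in the nodose-like cells of 14 of 16 plates.

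**Figure D4:**
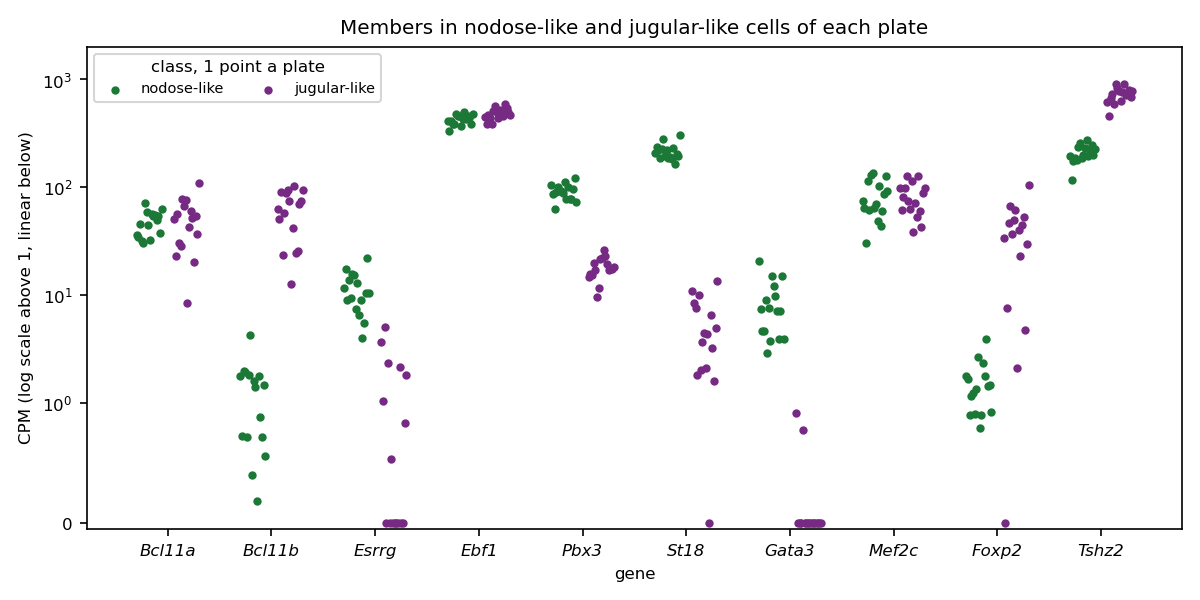
CPM of the 10 genes (x axis) in the nodose-like (green) and jugular-like (purple) cells of each of the 16 plates, with the y axis logarithmic above 1 and linear below. The green and purple points of Bcl11b, Pbx3, St18, Gata3 and Tshz2 do not overlap, and those of Bcl11a, Mef2c and Ebf1 lie on each other.

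Of 30 relatives and binding partners in the family lists, 28 were in the table and 19 reached 20 CPM in a group, with a median restriction of 0.439. Ebf2 was highest in Calca-high cells (28.5 CPM in summed counts) and Ebf4 also (29.3 CPM), while Ebf3 was highest in other jugular-like cells (127 CPM), and Ebf1 was the most even of the 4. Pbx2, of the family of Pbx3, was even (0.158). The Pbx partners Meis1, Meis2 and Pknox2 had the opposite order to Pbx3: Meis2 had 55.2 ± 23.9 CPM in the jugular-like cells against 4.18 ± 2.89 CPM, and Pknox2 99.6 ± 23.6 and 11.6 ± 3.24 CPM (n = 16). Myt1, in the family of St18, was also opposite to it, with 93.5 ± 15.0 CPM in the jugular-like cells against 19.1 ± 2.88 CPM. Mef2a (0.327) and Mef2d (0.181) were more even than Mef2c, and Foxp1 (0.289) more even than Foxp2.

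The genes most like each member, by Pearson correlation over the 1392 cells among 10002 genes on log2(UMIs per 10000 + 1), were as follows. St18 went with Cckar, the cholecystokinin A receptor (0.844 over all cells, 0.824 within nodose-like cells), Foxp2 with the cadherin Cdh8 (0.729) and Bcl11b with Calca (0.719) and, within jugular-like cells, with the receptor Kit (0.764). Esrrg went with the growth factor Igf1 (0.711) and the transglutaminase Tgm2 (0.649), and Mef2c with the same pair (0.622 and 0.661). Esrrg and Mef2c themselves had 0.526 over all and 0.595 over nodose-like cells. Gata3 went with St8sia2 (0.643 over all and 0.788 within nodose-like cells), Bace2 (0.643), Slc18a2, the vesicular monoamine transporter (0.602), and Thsd7b (0.593). St8sia2 (68.1 CPM) and Thsd7b (50.8 CPM) were themselves highest in other jugular-like cells, which had no Gata3. Pbx3 went with Mab21l2 (0.617) and Prox2 (0.589), Bcl11a with the PACAP gene Adcyap1 (0.561) and Ebf1 with Rbfox1 (0.513). The members were picked by cells high in subtype genes such as Prox2 and Calca. The values of Pbx3 with Prox2 and of Bcl11b with Calca therefore come with that choice. Tshz2 went with Prdm12 (0.68) over all cells and hardly within a class (0.07 in nodose-like and 0.02 in jugular-like cells). The lowest value between 2 members was -0.43, for Bcl11a and Pbx3. Cells of a plate share a library and depth moves all of these values, so they carry no p.

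Nodose-like wells rich in glial RNA were then compared with wells poor in it. With the glial sum taken over 7 genes, the 6 above and S100b, and a limit of 500 CPM, 639 cells were glia-high and 513 glia-low in 16 plates. S100b makes this contrast depend on subtype: it was 294 CPM in Prox2-high, 324 CPM in P2ry1-high, 364 CPM in Sst-high and 302 CPM in Bmp3-high cells, but 78.4 CPM in Eln-high, 84.5 CPM in Vip-high and 103 CPM in Cckbr-high cells. The other 6 genes summed to between 480 and 602 CPM in these groups. The values below are therefore given with and without S100b, the latter chosen after seeing the data.

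Of 11824 genes tested, 2875 (24.3%) passed an adjusted p of 0.05 with S100b in the sum, and of the 8 members with enough counts 4 did. Ebf1 fell, and this held without S100b. It ran from 362 to 577.5 CPM in glia-low (median 457) and from 336 to 479 CPM in glia-high cells (median 413), overlapping, and was lower in the glia-high cells of all 16 plates (log2 -0.19 ± 0.03, edgeR adjusted p = 1.29e-05). Without S100b its difference was -0.13 ± 0.03 (edgeR adjusted p = 0.00298), and -0.10 with the subtype group as a further term (edgeR adjusted p = 0.0228).

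Esrrg, Mef2c and St18 passed only with S100b in the sum. Esrrg had 1.61 to 12.1 CPM in glia-low and 5.79 to 29.4 CPM in glia-high cells (log2 1.26 ± 0.22, edgeR adjusted p = 0.000232), and without S100b its difference was -0.23 ± 0.16 (edgeR adjusted p = 0.33). Mef2c had 15.6 to 117 CPM and 41.6 to 239 CPM (log2 1.13 ± 0.17, edgeR adjusted p = 0.000114), and without S100b the difference was -0.09 ± 0.19 (edgeR adjusted p = 0.802). St18 went from a median of 240 to 190 CPM (log2 -0.41 ± 0.06, edgeR adjusted p = 8.64e-05), and the difference was 0.07 ± 0.10 without S100b (edgeR adjusted p = 0.692). Within the Prox2-high cells, the sum without S100b gave overlapping levels as well, with Esrrg at 32.7 ± 19.1 CPM in glia-high (n = 16 plates) and 40.3 ± 18.3 CPM in glia-low cells (n = 14), and Mef2c at 217 ± 128 and 230.5 ± 138 CPM.

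Bcl11a (log2 -0.33 ± 0.13, edgeR adjusted p = 0.0837), Pbx3 (0.13 ± 0.08), Gata3 (-0.55 ± 0.57) and Tshz2 (-0.03 ± 0.06) did not pass in either form, and Bcl11b and Foxp2 were under the count filter. The median log2 difference over the 8 members was -0.11 with S100b in the sum, against -0.02 over all genes tested. Of 19 relatives tested, 5 rose (Esrra, Pknox2, Foxp1, Foxp4, Tshz3), 2 fell (Ebf4, Meis3) and 12 did not pass with S100b in the sum, and their values without it were not computed.

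Between sexes no member passed. Cells with Xist and no Y-linked RNA (458) were compared with cells with Y-linked RNA and no Xist (489) in the 14 plates that had both, and 48 of 11724 genes (0.409%) passed. Another 257 cells held RNA of both kinds and were left out, and whether these were wells of mixed content was not tested. At an unadjusted p under 0.05 there were 1119 genes, and DESeq2 passed 45 genes and 0 members. Tshz2 came nearest: 191 to 321 CPM (median 284) in Y-positive and 210 to 432 CPM (median 302) in Xist-positive cells overlapped widely, and it was higher in 11 of 14 plates (log2 0.22 ± 0.06, edgeR adjusted p = 0.165). In nodose-like cells alone its difference was 0.05 (edgeR adjusted p = 0.916). Foxp2 (0.70 ± 0.45) and Mef2c (0.27 ± 0.23) had wide errors, and of 20 relatives tested 0 passed.

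The column headers assign the plates to 2 runs of 8, without saying what a run stands for, and 2 members differed between the runs. Tshz2 ran from 295 to 395 CPM (median 319) in the first and 188 to 289 CPM (median 250) in the second run, without overlap (log2 -0.43 ± 0.08, edgeR adjusted p = 0.0194). Without TMM scaling the ranges were 287 to 399 and 182.5 to 299 CPM and overlapped. Ebf1 ran from 406 to 515 CPM (median 479) and from 355 to 453 CPM (median 407), with overlap (log2 -0.22 ± 0.06, edgeR adjusted p = 0.0391). Over all genes 361 of 13475 (2.68%) passed. Both calls were lost when plates 2 and 3 of the first run were left out, which also leaves fewer plates: 2 genes then passed, neither of them a member, with Tshz2 at -0.35 (edgeR adjusted p = 0.0881) and Ebf1 at -0.21 (0.123). Plates 2 and 3 are also those with no cell that had Xist and no Y-linked RNA. Whether the difference between runs goes with the sex of the cells was not tested. Bcl11a (-0.54 ± 0.15) had an edgeR adjusted p of 0.051. Jugular-like cells were 19.1% of the first and 15.4% of the second run, and in nodose-like cells alone Tshz2 passed (-0.36, edgeR adjusted p = 0.0472), Ebf1 did not (-0.21, 0.0592) and Bcl11a did (-0.53, 0.0387). The other 7 members lay between -0.71 ± 0.35 (Bcl11b) and 0.47 ± 0.37 (Gata3), and 0 of 22 relatives passed.

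In the GENCODE annotation of GRCm38, all 10 are protein-coding genes with the following places. Bcl11a is at chr11:24078056-24174123 (+ strand) and Ebf1 on the same chromosome at chr11:44617317-45008091 (+). Esrrg is at chr1:187608791-188214885 (+), St18 at chr1:6487231-6860940 (+), Mef2c at chr13:83504034-83667080 (+), Foxp2 at chr6:14901349-15441977 (+) and Bcl11b at chr12:107910403-108003602 (-). Chromosome 2 carries Pbx3 at 34171457-34373142 (-), Gata3 at 9857078-9890034 (-) and Tshz2 at 169633013-170071816 (+). The only gene that shares exon sequence with a member on the same strand is 9230102O04Rik with Gata3, which had 6 UMIs against 774 of Gata3. On the opposite strand the largest was Gm26883 with 135 UMIs against 30919 of Tshz2.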

How the data were processed

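The deposited table holds UMI counts per gene and cell, not normalized by the authors; reads were aligned with STAR to mm10, per the submitters' processing notes. Not given in the sources used here: versions, annotation, counting tool and cell filters. Each column named its plate and run, and every row named a gene. The 10 genes, the lists and the tests were chosen with earlier results of these data known.

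Levels are CPM of UMIs summed per plate and group (Python 3.11.15, pandas 2.3.3, numpy 2.4.6). Summed counts were tested with edgeR 4.0.16 in R 4.3.3 (glmQLFit and glmQLFTest, robust, two-sided, TMM factors, filterByExpr), with plate as a block for sex and glia, using plates where each class had 5 cells or more, and with Benjamini-Hochberg adjustment over all genes. Levels printed beside a test carry TMM factors. The SE is approximate (size of the log2 difference over the root of F). The classes compared for sex and glia shared a plate and are paired by it. Because ganglia were pooled, plates can share animals; the p-values then measure only plate-to-plate spread, possibly technical. No doublet caller was run; 124 cells high in several subtype genes were left out in an alternative. Group levels are limited by cells per plate, and intervals cover counting error only. Alternatives were DESeq2 1.42.0, RLE factors, no low-count filter, no plate block, each run alone, other glia and ratio limits, thinning, and, chosen after seeing the data, leaving out plates 2 and 3, S100b, the highest plate of a group or the jugular-like P2ry1-high cells.

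Named were the 10 genes, relatives from family lists reaching 20 CPM in a group, and up to 5 genes most correlated with each member (at least 1000 UMIs, r of at least 0.3). Some genes of the lists are not reported here. Promoter windows are from RefSeq. The edgeR script was tested on simulated data.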

Additional observations from a re-analysis of the deposited data

Results flagged for a closer look

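In groups of 4 to 10 plates, the highest or lowest plate was compared with its nearest neighbour, relative to the whole range. Of 37 such sets of values 6 had a plate beyond the 95% limit of Dixon's test, where chance flags about 1 in 20. In Trpm8-high cells, plate 6 stood far above the rest for St18 (180.5 CPM, next plate 16.0) and for Bcl11a (251 CPM, next 92.2), plate E for Bcl11b (25.6 CPM, next 13.4) and plate C for Esrrg (4.98 CPM, all others 0). In Sst-high cells it was plate 6 for Bcl11a (63.3 CPM, next 18.2) and plate 11 for Bcl11b (7.34 CPM, all others 0). For Esrrg, with 1 UMI in all Trpm8-high cells, and for Bcl11b, with 4 in all Sst-high cells, every other plate was at 0, so that a lone plate with a UMI passes the limit by construction. The group means of these genes in the 2 groups rest in part on those plates. Of the 39 Trpm8-high cells, 1 was nodose-like, and that cell was high in both St18 and Bcl11a. How far it made up the plate 6 values was not tested.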

How the results depend on the processing

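Of 207 recomputed test values of members, 165 kept direction and side of the threshold, 7 lost and 12 gained a pass, and 23 changed sign. For sex, the count of 48 genes became 522 without the low-count filter (St18, Mef2c, Foxp2 and Tshz2 then passed), 18 with no replicate block and 16 in the second run alone. For glia, 2875 became 1425 with no replicate block, 1687 in the first run, 1361 in the second, 1454 with subtype terms and 1541 with subtype terms and without S100b. At a glia limit of 250 CPM, Bcl11a (-0.44) and Pbx3 (0.32) passed. The plate pairing changed no member's call in these tests. For runs, 361 became 956 with DESeq2 and 2 without plates 2 and 3. Without S100b in the glial sum, the signs changed of Esrrg (-0.232), Mef2c (-0.0902) and St18 (0.0716), which had passed, and of Bcl11a (0.0013) and Pbx3 (-0.0245); with subtype terms also, Mef2c was -0.109, St18 0.0586 and Bcl11a 4e-04. The other changes of sign, all of values that did not pass, were, for sex, Esrrg (-0.038) and Gata3 (-0.212) with no replicate block, Bcl11a in the first run (0.131), and Bcl11b (-0.453), Esrrg (-0.0573), Ebf1 (0.0275) and Gata3 (-0.0279) in the second; for glia, Gata3 in the first run (0.0432) and Gata3 (0.0113) and Tshz2 (0.0304) at a limit of 1000 CPM; for runs, Pbx3 with DESeq2 (-0.0027), with RLE factors (-0.0017), in nodose-like cells (-0.0451) and without plates 2 and 3 (-0.0342), and Esrrg without them (0.0845). The cause of these changes was not tested.

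Of 1180 recomputed levels, 22 moved by over 1 SD. Of these, 11 came from keeping glia-low cells alone, by the sum with S100b. The group with the highest level stayed the same in all 9 settings for Bcl11b, Esrrg, Foxp2, Gata3, Pbx3 and St18, and in 8 for Bcl11a, 7 for Mef2c, 6 for Tshz2 and 5 for Ebf1. Depth limits the low groups, where a few UMIs set the level.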

Other observations

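Outside the 10 groups, members also marked cells. Of the 356 other nodose-like cells, 131 were high in St18, 90 in Bcl11a, 83 in Pbx3, 36 in Mef2c, 10 in Esrrg and 4 in Gata3, and 22 were high in both St18 and Pbx3. There, 8 of the 10 Esrrg-high cells were also Mef2c-high, and 8 of the 36 Mef2c-high cells also Esrrg-high, against 33 of 37 and 33 of 70 in Prox2-high cells; the difference was not tested. Of the 43 other jugular-like cells, 13 were high in Foxp2, although none of them counted as Trpm8-high, and their median depth was 36385 UMIs.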
